A study of Mus musculus with 6 samples.

Results

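The proteasome genes were taken from the gene names of the whole mouse colon table, as every name made of Psm, a letter from a to g and a number. The pattern gave 54 of the 30330 gene names with values, with 249 listed transcripts, of which 226 had values. In each library the 54 genes together held between 0.381 and 0.530% of all transcript abundance. Abundance is in TPM, transcripts scaled by length and by the total of the library. A mean of 1 TPM or more was reached by 48 of them, and these were tested among 14248 genes. The 6 others were Psma8 and Psmb11, which encode 20S subunits of the testis and the thymus, and 4 names ending in ps or ps2 that mark pseudogenes. Psmc3ip is caught by the pattern but is a partner of meiotic recombination proteins and no subunit.

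Libraries came from the colon of 3 wild-type mice (label WT) and 3 mice labelled R1ko, knockouts of Tnfrsf1a, which encodes the TNF receptor TNFR1. All animals were males of 12 weeks with the strain label C57Bl/6J, and no treatment is labelled. The sources used here give neither the exons removed in the knockout nor whether littermates were used. Whole colon RNA mixes epithelium, muscle and blood-derived cells, so fewer cells of a type and less RNA per cell cannot be told apart.

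The proteasome is the main protease of the cytosol and nucleus. Its 20S core is a barrel of alpha and beta rings, in which Psmb5, Psmb6 and Psmb7 carry the chymotrypsin-like, caspase-like and trypsin-like sites, and the 19S cap recognises and unfolds ubiquitylated proteins. Interferon gamma, and TNF beside it, are known to induce the immune subunits Psmb8, Psmb9 and Psmb10, which replace Psmb5, Psmb6 and Psmb7 in newly built cores, and the PA28 activator made of Psme1 and Psme2. Immunoproteasomes shape the peptides shown on class I molecules and are known from leukocytes and from inflamed intestinal epithelium.

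Level was read as scaled TPM, the deposited TPM divided by a size factor for each library, and differences are knockout minus wild type on the scale log2(scaled TPM + 0.5). In the whole table, 6 genes passed an adjusted p of 0.05 in limma (Benjamini-Hochberg), 5 higher and 1 lower. The full-length Tnfrsf1a transcript measured 59.9, 50.9 and 53.9 scaled TPM in wild type and 22.2, 22.3 and 24.1 in knockout, while the gene as a sum did not pass (log2 difference −0.44, limma adjusted p = 0.286). In wild-type replicate 2, 26.9% of the TPM lay in 2 transcripts without a gene name, against 1.25 to 6.69% in the other libraries, which is why a size factor was used. Libraries correlated across genes at r of 0.971 to 0.987. Because only TPM were deposited, the depth behind each value is unknown.

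None of the 48 tested proteasome genes passed the threshold, against 0.0421% of all genes tested. At an unadjusted p under 0.05 there were 2, Psme3 and Psme2b, where 11.3% of all genes reached that level. The lowest adjusted p among the 48 was 0.393, for Psme3. Differences were above 0 in 35 and below 0 in 13, with a median of 0.04 against −0.003 over all genes tested. The median rose with level in the whole table. It was 0.03 over genes that averaged 10 TPM or more, with 4909 of 8336 above 0. Over genes that averaged 50 TPM or more it was 0.08, with 2017 of 2703 above 0. By scaled TPM, all 3 knockout libraries lay above all 3 wild-type libraries for 4 genes (Psma6, Psmb5, Psmd2 and Psme3), a pattern that 9.28% of all genes showed. The reverse held for 1, Psme2b, and for 9.18% of all genes. In the TPM as deposited, Psma6, Psmb5, Psmd2 and Psme3 overlapped between genotypes. The plot of differences by gene shows how narrow most intervals were and how wide those of the immune subunits were.

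**Figure D1:**
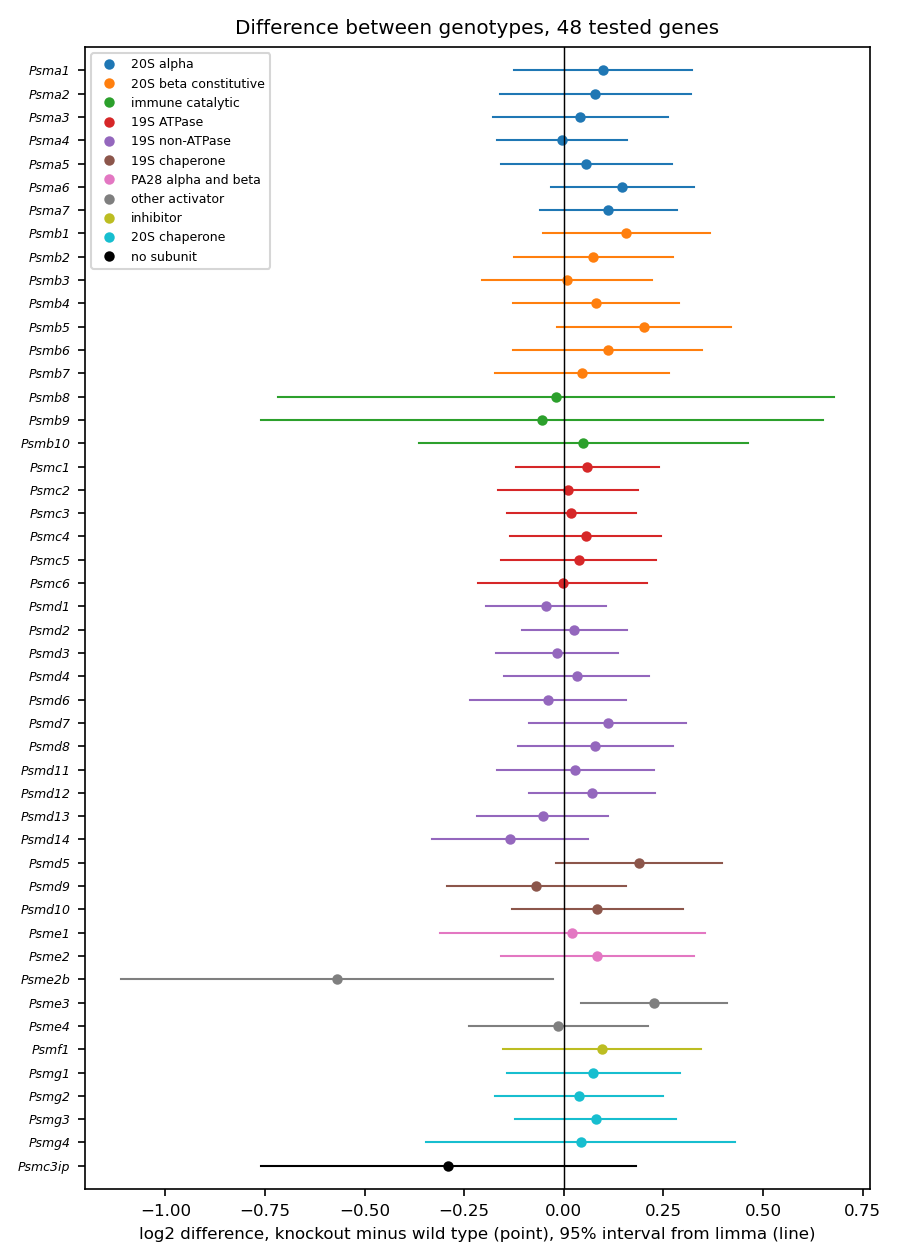
Difference between genotypes for the 48 tested genes, grouped by role. Points are knockout minus wild type on the scale log2(scaled TPM + 0.5) and lines are 95% intervals from limma with 3 libraries in each group. All intervals but those of Psme3 and Psme2b cross 0, and the interval of Psmb8 runs from −0.72 to 0.68.

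The start regions of the catalytic subunits are shown because constitutive and immune subunits are known to answer to different regulators: the constitutive genes to NFE2L1 through antioxidant-response-type elements, the immune genes to IRF1 and NF-kB. RefSeq (GRCm38.p6) gave a start region for 42 of the 54 genes, and the 250 bases before each start were searched on both strands. The window of Psmb5 holds 1 match to TGACNNNGC, the letters of the antioxidant-response-type element, which begins 47 bases before the start. Psmb6 holds 1 that begins 9 bases before its start, and Psmb10 holds none of the motifs searched. Printed 5′ to 3′ on the strand of the gene and without bases that GENCODE M21 places in an exon, with the match in capitals, they read as follows. Psmb5 is chr14:54618023-54618245 on the minus strand, Psmb6 is chr11:70525107-70525356 on the plus strand and Psmb10 is chr8:105938445-105938642 on the minus strand.
Psmb5: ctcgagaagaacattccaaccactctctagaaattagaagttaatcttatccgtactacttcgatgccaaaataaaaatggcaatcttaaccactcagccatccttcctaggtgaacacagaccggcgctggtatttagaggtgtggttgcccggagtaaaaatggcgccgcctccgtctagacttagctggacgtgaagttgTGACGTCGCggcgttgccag
Psmb6: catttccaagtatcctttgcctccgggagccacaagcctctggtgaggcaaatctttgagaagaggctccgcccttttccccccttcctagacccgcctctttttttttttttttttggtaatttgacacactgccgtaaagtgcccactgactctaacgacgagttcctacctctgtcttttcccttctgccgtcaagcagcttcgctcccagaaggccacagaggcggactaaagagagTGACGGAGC
Psmb10: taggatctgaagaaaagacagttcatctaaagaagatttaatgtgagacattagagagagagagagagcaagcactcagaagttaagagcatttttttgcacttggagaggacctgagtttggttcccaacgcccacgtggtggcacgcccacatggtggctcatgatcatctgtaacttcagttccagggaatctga

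The windows of Psmb8 and Psmb9 lie wholly inside first exons of longer GENCODE transcripts and are not printed. Psmb8 holds none of the motifs searched. Over all 32851 start regions of the table, TGACNNNGC was present in 10.2%, and it was present in 5 of the 45 regions that belong to the 42 proteasome genes. The interferon-stimulated response element, read as GAAA, any 2 bases and GAAA again, was found in 3 of the 45 and 2.98% of all, and the NF-kB consensus in 6 of the 45 and 7.25% of all. CCAAT was present in 15 of the 45 and 33.9% of all, and in Psmb9 its complement begins 8 bases before the start. None of the 5 windows held more than 1 match, so no matches overlapped. These matches describe the letters and show no binding.

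Among the immune catalytic subunits, the libraries of one genotype differed far more from each other than the genotypes did. Psmb8 (ENSMUSG00000024338; mm10 chromosome 17, 34197721 to 34201454, plus strand) takes the place of Psmb5. It measured 42.9, 88.6 and 48.6 scaled TPM in wild-type replicates 1 to 3 and 44.7, 52.5 and 75.8 in the knockout replicates. One library in each genotype was high, wild-type replicate 2 and knockout replicate 3, and the groups overlapped throughout. The means were 60.1 ± 24.9 and 57.6 ± 16.2 scaled TPM (SD, n = 3). The log2 difference was −0.02 with a 95% interval of −0.72 to 0.68 (limma adjusted p = 0.982).

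Psmb9 (ENSMUSG00000096727; chromosome 17, 34181987 to 34187764, minus strand) takes the place of Psmb6 and had the lowest level of the 6 catalytic genes. Its values were 13.1, 27.7 and 15.9 scaled TPM in wild type and 14.2, 15.2 and 24.0 in knockout. The same 2 libraries were high, and the groups overlapped. The log2 difference was −0.05, with an interval of −0.76 to 0.65 (limma adjusted p = 0.953). The 5′ end of Psmb9 overlaps that of Tap1 (34187553 to 34197225, plus strand), the peptide transporter gene read in the opposite direction. The sources used here do not say whether strand was used in quantification, so reads from the overlap may be counted for either gene.

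Psmb10 (ENSMUSG00000031897; chromosome 8, 105935735 to 105938444, minus strand) takes the place of Psmb7 and was the most abundant of the 3 immune subunits. It measured 64.7, 101.9 and 76.0 scaled TPM in wild type and 70.5, 85.5 and 92.3 in knockout. The 2 highest libraries were again wild-type replicate 2 and knockout replicate 3, although the range was narrower, 1.57-fold against 2.06-fold for Psmb8 and 2.11-fold for Psmb9. Its log2 difference was 0.05, with an interval of −0.36 to 0.46 (limma adjusted p = 0.925). The spread within genotypes, as the residual SD on the log2 scale, was 0.48 for Psmb8, 0.48 for Psmb9 and 0.27 for Psmb10, against a median of 0.10 over the 31 constitutive 20S and 19S subunits and 0.14 over all genes.

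**Figure D2:**
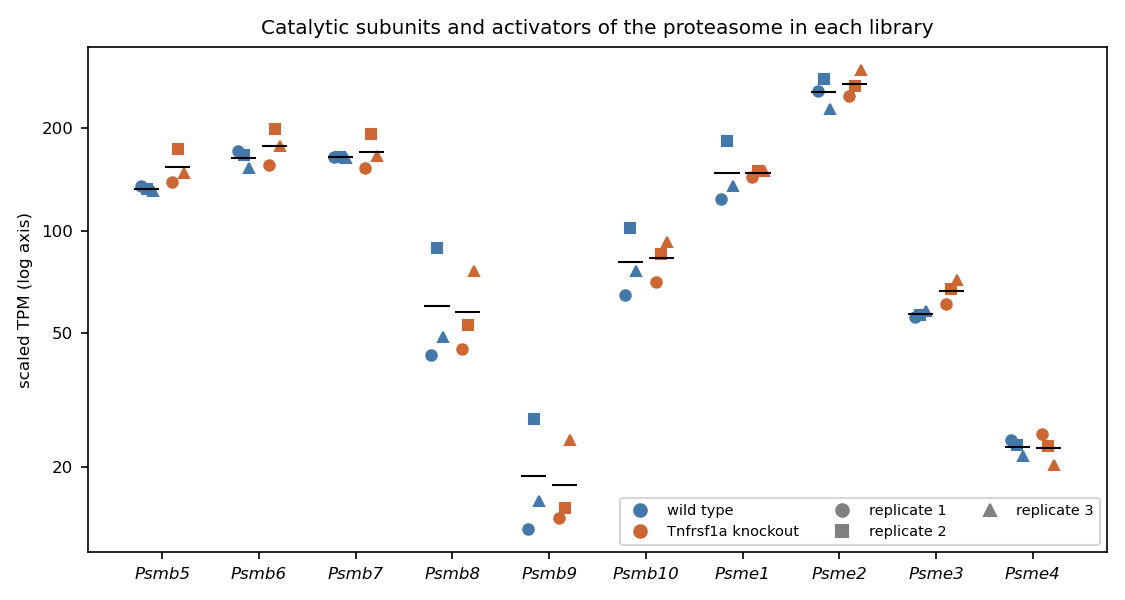
Levels of catalytic subunits and activators in each of the 6 libraries, as scaled TPM on a log axis. Blue marks wild type, orange Tnfrsf1a knockout, the symbol shape gives the replicate number and black bars are means of 3. Psmb8, Psmb9 and Psmb10 are highest in wild-type replicate 2 and knockout replicate 3, while Psmb5, Psmb6 and Psmb7 are highest in knockout replicate 2.

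The constitutive partners were more abundant and varied less. Psmb5 (ENSMUSG00000022193; chromosome 14, 54614119 to 54618022, minus strand) measured 136, 133 and 131 scaled TPM in wild type and 139, 174 and 148 in knockout. By scaled TPM, but not in the TPM as deposited, each knockout library lay above each wild-type library. The scaled means were 133 ± 2.63 in wild type and 154 ± 18.4 in knockout (SD, n = 3). The log2 difference was 0.20 ± 0.09 (SE), with an interval of −0.02 to 0.42, and did not pass (limma adjusted p = 0.465). Without knockout replicate 2 the difference of Psmb5 was 0.11. Psmb6 measured 172, 167 and 152 scaled TPM in wild type and 156, 199 and 177 in knockout, with overlap (log2 difference 0.11, limma adjusted p = 0.672). Psmb7 measured 165, 165 and 163 in wild type and 153, 193 and 166 in knockout (0.05, limma adjusted p = 0.863). Both Psmb6 and Psmb7 were highest in knockout replicate 2, and 1 knockout library of each lay below at least 2 wild-type libraries.

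The balance between forms was read as the share of the immune subunit in the summed TPM of each pair, a value within 1 library that does not depend on scaling. Psmb8 made up 24.0, 40.0 and 27.2% of its pair with Psmb5 in wild type and 24.4, 23.1 and 33.9% in knockout. The means were 30.4 ± 8.47 and 27.1 ± 5.89% (SD, n = 3). Psmb9 made up 7.11, 14.2 and 9.46% of its pair with Psmb6 in wild type and 8.29, 7.10 and 12.0% in knockout. Psmb10 made up 28.2, 38.2 and 31.7% of its pair with Psmb7 in wild type and 31.6, 30.7 and 35.7% in knockout. By RNA, the constitutive subunit exceeded its immune counterpart in every library for all 3 pairs.

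None of the 3 pairs separated the genotypes. The log2 ratio of immune to constitutive subunit differed by −0.22 for Psmb8 over Psmb5, −0.17 for Psmb9 over Psmb6 and 0.004 for Psmb10 over Psmb7. Two-sided exact permutation p-values were 0.6, 0.6 and 1, or 0.9, 0.9 and 1 after Benjamini-Hochberg adjustment over the 3 pairs, and 3 mice against 3 cannot give less than 0.1. Without wild-type replicate 2 the differences were 0.10, 0.13 and 0.18, so the negative sign of the first and second pairs rested on that library.

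**Figure D3:**
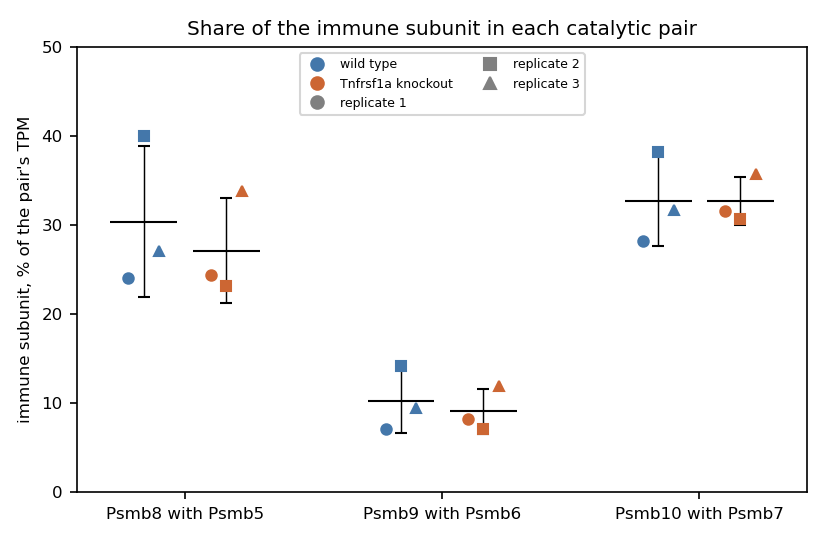
Share of the immune subunit in the summed TPM of each catalytic pair, in percent, for 3 wild-type (blue) and 3 Tnfrsf1a knockout (orange) libraries. Long bars are means and whiskers are SD. The Psmb9 share lies between 7.10 and 14.2%, below the shares of Psmb8 and Psmb10, and the genotypes overlap in every pair.

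Psme1 and Psme2 (chromosome 14, 55578123 to 55581529 on the plus strand and 55587441 to 55591113 on the minus strand) encode PA28 alpha and beta, which open the 20S gate without ATP. Psme1 measured 124, 184 and 136 scaled TPM in wild type and 144, 149.7 and 149.9 in knockout. Its log2 difference was 0.02, with an interval of −0.31 to 0.35 (limma adjusted p = 0.960). Wild-type replicate 2 was again the highest. Psme2 measured 258, 281 and 228 in wild type and 249, 266 and 298 in knockout, the highest level among all 54 genes. Its log2 difference was 0.08, with an interval of −0.16 to 0.33 (limma adjusted p = 0.756). For all 5 immune members, the 3 catalytic subunits, Psme1 and Psme2, wild-type replicate 2 and knockout replicate 3 were the 2 highest libraries. The same held for 0 of 31 constitutive subunits and 6.39% of all genes. These counts rest on scaled TPM. In the TPM as deposited, the order held for Psmb8 and Psmb9 but not for Psmb10, Psme1 or Psme2. There Psme2 was lowest in wild-type replicate 2 (220), and Psmb10 was lower in wild-type replicate 2 (79.9) than in wild-type replicate 3 (83.3). The ordering by scaled TPM was noticed after the values were seen and is a description of these 6 libraries.

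Genes of the interferon response and of class I antigen processing were read in the same libraries. Of 17 interferon response genes, 15 were tested and none passed (lowest adjusted p 0.490 in limma, for Cxcl10). None reached an unadjusted p under 0.05 in limma, against 11.3% of all genes. Their median log2 difference was −0.03, with 5 above 0. In 10 of the 15, and in 6.39% of all genes, wild-type replicate 2 and knockout replicate 3 were the 2 highest libraries by scaled TPM. Gbp2, an interferon-induced GTPase, measured 11.7, 40.8 and 13.4 scaled TPM in wild type and 12.8, 14.6 and 34.3 in knockout. Irf1 measured 103.6, 167 and 141 in wild type and 118, 125 and 166 in knockout. Gbp2 and Irf1, chosen after their values were seen, were thus high where Psmb8 and Psmb9 were high. Summed over the list, interferon response genes held 261 to 418 scaled TPM in wild type and 281 to 415 in knockout. Ifng itself was listed at 0 in 3 libraries and at most at 0.20 scaled TPM elsewhere.

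Among 11 class I genes, none passed and none reached an unadjusted p under 0.05 in limma, against 11.3% of all genes. Tap1 measured 11.1, 29.3 and 14.6 scaled TPM in wild type and 13.6, 10.7 and 26.7 in knockout. Its 2 highest libraries were thus those of Psmb9, which held for 4 of the 11 genes and 6.39% of all genes. H2-K1, a class I heavy chain, had the lowest p of the list (log2 difference 0.20, limma adjusted p = 0.492). Its values were 649, 840 and 736 in wild type and 848, 833 and 867 in knockout. Nlrc5, the class I transactivator, measured 0.883, 1.50 and 1.45 in wild type and 0.634, 0.575 and 1.48 in knockout, so it was as high in wild-type replicate 3 as in the 2 libraries with high immune subunits. The median of the list was 0.11, with 7 of 11 above 0.

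**Figure D4:**
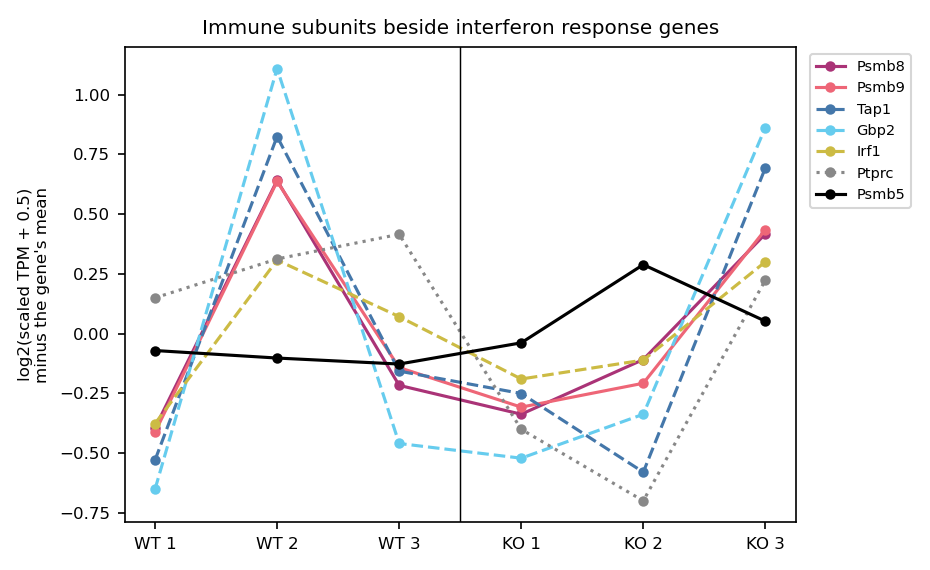
Psmb8 and Psmb9 (solid) beside the interferon response genes Gbp2 and Irf1 and the transporter gene Tap1 (dashed), the leukocyte marker Ptprc (dotted) and Psmb5 (black), by library. Values are log2(scaled TPM + 0.5) minus each gene's mean over the 6 libraries. Psmb8, Psmb9, Tap1 and Gbp2 are highest in wild-type replicate 2 and knockout replicate 3, Psmb5 is highest in knockout replicate 2 and Ptprc in wild-type replicate 3.

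Leukocytes express immune subunits at a high level, so their markers were set beside them. The 6 pan-leukocyte markers summed to 58.6, 62.0 and 74.1 scaled TPM in wild type and 45.4, 37.1 and 69.0 in knockout. All 6 were highest in wild-type replicate 3 and lowest in knockout replicate 2, which is not the order of Psmb8, Psmb9 or Psmb10. Ptprc, which encodes CD45, measured 4.81, 5.44 and 5.88 in wild type and 3.12, 2.44 and 5.09 in knockout (limma unadjusted p = 0.0383, not past the threshold). The 10 B cell markers summed to 29.2, 45.6 and 45.2 scaled TPM in wild type and 13.8, 9.93 and 37.3 in knockout. This sum was highest in wild-type replicate 2. Wild-type replicate 2 and knockout replicate 3 were the 2 highest libraries for 2 of the 10 markers, and for 6.39% of all genes. All 10 had a difference below 0. Among them, 4 reached an unadjusted p under 0.05 in limma, as did 11.3% of all genes. None of the 10 passed (lowest adjusted p 0.335 in limma, for Pax5). The 10 T cell markers summed to 11.5, 10.4 and 10.9 in wild type and 8.78, 7.91 and 10.3 in knockout. The 10 macrophage and dendritic cell markers summed to 136, 144 and 157 in wild type and 141, 133 and 168 in knockout. Among the knockout libraries, replicate 3 had the highest sum in all 4 lists. No marker of these 4 lists was at 0 in any library. The part of the leukocyte content in the level of the immune subunits was not tested.

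Constitutive 20S subunits were abundant and moved together from library to library. All 14, 7 alpha and 7 beta, were tested, with mean levels from 95.2 to 235 scaled TPM. Differences were above 0 in 13, with a median of 0.08. Over the 2703 genes that averaged 50 TPM or more the median was also 0.08, and 2017 lay above 0. Psma4, which had the smallest difference of the alpha ring (−0.004), measured 152, 157 and 152 in wild type and 149, 165 and 146 in knockout. Psma5, the least abundant alpha subunit, measured 97.0, 95.6 and 87.0 in wild type and 87.6, 107 and 96.7 in knockout.

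Psma6 had the lowest p of the alpha ring. By scaled TPM, but not in the TPM as deposited, each of its knockout libraries lay above each wild-type library. It measured 225, 222 and 219 scaled TPM in wild type and 230.1, 269 and 239.9 in knockout (log2 difference 0.15 ± 0.08 SE, limma adjusted p = 0.499), and the difference was 0.08 without knockout replicate 2 and 0.03 after quantile normalization. Psmb1, the most abundant beta subunit, measured 229.5, 218 and 216 in wild type and 227, 278 and 238 in knockout. Psmb2, the least abundant, measured 124, 122 and 124 in wild type and 117, 144 and 129.9 in knockout. Both overlapped between genotypes. By scaled TPM, the difference of the ring members followed 1 library. Knockout replicate 2 was the highest for all 14 genes, against 24.4% of all genes and 55.7% of genes that averaged 50 TPM or more. This order depended on the size factors, 0.916 for knockout replicate 2 and 1.13 for wild-type replicate 1. In the TPM as deposited, Psmb5 alone of the 14 was highest in knockout replicate 2.

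The 17 subunits of the 19S cap lay at 42.0 to 196 scaled TPM. Of these, 11 had a difference above 0 and the median was 0.03. The 6 ATPases, Psmc1 to Psmc6, form the unfolding ring. Psmc3, the most abundant, measured 189, 205 and 191 scaled TPM in wild type and 193, 208 and 192 in knockout. Psmc2, the least abundant, measured 65.7, 63.1 and 61.2 in wild type and 60.5, 69.0 and 62.1 in knockout. Psmc1, with the largest difference of the ring (0.06, limma adjusted p = 0.772), measured 125, 125 and 120.1 in wild type and 119.6, 140.3 and 127 in knockout. Psmc6 was the only ATPase below 0 (−0.003), with 88.9, 90.3 and 81.7 in wild type and 84.7, 96.9 and 79.4 in knockout. By scaled TPM, all 6 ATPases were highest in knockout replicate 2, but none was in the TPM as deposited. All overlapped between genotypes.

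Among the 11 non-ATPase subunits, 6 had a difference above 0 and knockout replicate 2 was the highest library for 5. Psmd14, the deubiquitylase of the cap, lay below 0 by the most. It measured 63.1, 66.2 and 59.0 scaled TPM in wild type and 56.7, 62.0 and 52.9 in knockout (log2 difference −0.13 ± 0.08 SE, limma adjusted p = 0.553), with 1 knockout library inside the wild-type range. Psmd7, its partner in the deubiquitylase module, lay above 0 by the most. It measured 94.9, 91.8 and 84.3 in wild type and 89.3, 104.6 and 99.1 in knockout (0.11, limma adjusted p = 0.618). The signs of this pair thus differed, and neither passed. Psmd4, a ubiquitin receptor and the most abundant of the 11, measured 125, 136 and 117 in wild type and 123, 133 and 131 in knockout. Psmd11, the least abundant, measured 40.3, 44.8 and 39.6 in wild type and 43.4, 44.9 and 39.1 in knockout.

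Psmd2, a scaffold subunit of the base, stood out by its small spread, and is named after its values were seen. It measured 87.1, 86.3 and 86.7 scaled TPM in wild type and 88.4, 89.1 and 87.5 in knockout. The groups did not overlap, yet the highest library was only 1.03-fold above the lowest and the log2 difference was 0.03, with an interval of −0.11 to 0.16 (limma adjusted p = 0.868). Only 0.014% of all genes had a smaller or equal residual SD.

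**Figure D5:**
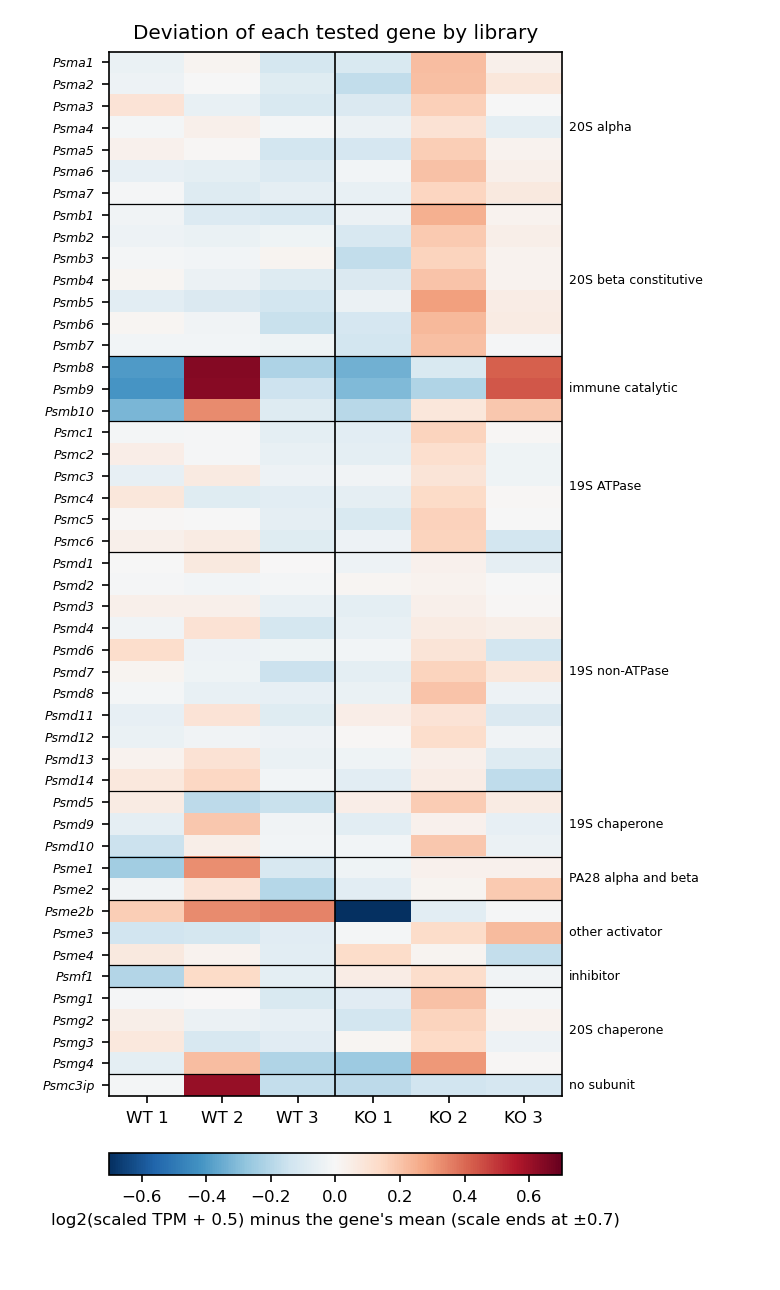
Deviation of the 48 tested genes from their own mean in each library, as log2(scaled TPM + 0.5), with genes in rows by role and libraries in columns (WT wild type, KO knockout, with replicate number). Red is above and blue below the mean, and the colour scale ends at ±0.7. Constitutive subunits are mostly red in knockout replicate 2, and immune catalytic subunits are red in wild-type replicate 2 and knockout replicate 3.

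By scaled TPM, knockout replicate 2 was the highest library for 25 of the 31 constitutive subunits. In the TPM as deposited it was the highest for Psmb5 alone. The median deviation from the mean in that library was 0.20 for the 14 20S subunits and 0.10 for the 17 cap subunits, against 0.13 for genes that averaged 50 TPM or more and 0.002 over all genes. The ratio of the geometric mean of 20S to that of 19S subunits was 2.08, 2.03 and 2.08 in wild type and 2.04, 2.26 and 2.22 in knockout, with overlap. The transcripts of the 20S group were shorter, with a median of 1101 bases against 1626 for 19S, and over all genes the median deviation in knockout replicate 2 was 0.09 for the shortest class of transcripts (median 658 bases) and −0.05 for the longest (median 4434 bases). Within length classes, the median deviation of the constitutive subunits was above that of all genes in that library: 0.18 against 0.09 in the shortest class, 0.17 against 0.10 in the next and 0.12 against 0.02 in the next. Over the 31 constitutive subunits, log length and the deviation in knockout replicate 2 correlated at r = −0.53, against −0.06 over all genes. Within the 14 20S subunits r was 0.18, and within the 17 cap subunits it was −0.54. The classes of all genes were not matched for level, and the part of transcript length in these deviations was not tested. Markers of 3 tissues were also highest in knockout replicate 2 when summed. Skeletal muscle markers held 2380 scaled TPM in knockout replicate 2 and 182 to 1984 in the others, with the 1984 in wild-type replicate 1, where the median deviation of the 20S subunits was −0.02. The 12 epithelial markers held 9580 in knockout replicate 2 against 7801 to 8904, with 6 highest in that library. Of the 12, 11 had a difference above 0 and none passed. An unadjusted p under 0.05 in limma was reached by 3, and by 11.3% of all genes. The 6 adipocyte markers held 249 against 68.6 to 239, with 2 of the 6 highest in knockout replicate 2 and 4 in knockout replicate 3. All 6 differences were above 0 and none passed. Without overlap between genotypes were 5, all higher in knockout, a pattern of 9.28% of all genes. All 6 reached an unadjusted p under 0.05 in limma, as did 11.3% of all genes. Smooth muscle markers held 6568 in knockout replicate 2 and 6223 to 7364 in the others. The part of tissue content in the 20S levels was not tested. Without knockout replicate 2, the median difference of the 31 constitutive subunits was −0.01, against 0.05 with it, and under quantile normalization it was −0.03.

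Psme3 encodes PA28 gamma, a nuclear activator of the 20S core that interferon is not known to induce. It had the lowest p of all tested proteasome genes. Psme3 (chromosome 11, 101316213 to 101323537, plus strand) measured 55.7, 56.1 and 57.9 scaled TPM in wild type and 60.6, 67.1 and 71.6 in knockout. All knockout libraries lay above all wild-type libraries, with means of 56.6 ± 1.19 and 66.4 ± 5.51 scaled TPM (SD, n = 3). In the TPM as deposited the groups overlapped, at 62.8, 44.0 and 63.5 in wild type and 64.2, 61.4 and 76.1 in knockout. The log2 difference was 0.23 ± 0.08 (SE), with an interval of 0.04 to 0.41, and did not pass (limma unadjusted p = 0.022, adjusted p = 0.393).

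Within Psme3, the transcripts did not share the difference equally. The 2664-base coding transcript measured 36.8, 35.2 and 32.9 scaled TPM in wild type and 34.8, 37.0 and 37.0 in knockout, with overlap. A 698-base transcript, ENSMUST00000142640 (101316213 to 101320008), held 38.0% of the gene's level. It measured 14.3, 17.7 and 22.0 in wild type and 23.0, 29.8 and 33.4 in knockout, without overlap. Its log2 difference was 0.66 ± 0.19 (SE; limma adjusted p = 0.369 over 31056 transcripts). The short transcript starts at the same base as the long one, so their separate values depend on how shared reads were divided.

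Psme2b is a single-exon copy on chromosome 11 (48945354 to 48946190), close in sequence and name to Psme2. It measured 1.71, 1.97 and 2.0 scaled TPM in wild type and 0.650, 1.37 and 1.45 in knockout, without overlap (log2 difference −0.57, limma adjusted p = 0.434). Its level was far below that of Psme2, and since reads shared with Psme2 may be split between both, it is reported as uncertain. Psme4, the activator PA200, measured 24.0, 23.3 and 21.7 in wild type and 25, 23.2 and 20.3 in knockout. Psmf1, the inhibitor PI31, measured 12.8, 16.3 and 14.1 in wild type and 15.4, 16.2 and 14.5 in knockout. Both overlapped between genotypes, with log2 differences of −0.01 and 0.10.

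The assembly chaperones with a Psm name were less abundant than the subunits they help to place. The 4 chaperones of the 20S core, Psmg1 to Psmg4, had mean levels of 22.0 to 28.6 scaled TPM and were all highest in knockout replicate 2, with differences of 0.04 to 0.08. Psmg1 measured 28.4, 28.6 and 26.5 in wild type and 27.0, 33.0 and 28.2 in knockout. Psmg3 measured 23.2, 20.3 and 20.8 in wild type and 22.2, 24.3 and 21.4 in knockout. Among the 3 chaperones of the cap, Psmd5 had the lowest p, with 31.7, 26.7 and 27.3 in wild type and 31.5, 34.5 and 31.7 in knockout (log2 difference 0.19 ± 0.09 SE, limma adjusted p = 0.473). Wild-type replicate 1 was as high as 2 of the knockout libraries. Psmd9 measured 11.3, 13.6 and 11.6 in wild type and 11.2, 12.1 and 11.4 in knockout, and Psmd10 measured 28.8, 32.9 and 31.6 against 31.5, 36.6 and 31.1. Psmc3ip, the name that is no subunit, measured 4.52, 7.22 and 4.01 in wild type and 3.95, 4.11 and 4.16 in knockout.

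Psma8 lay between 0.0678 and 0.140 scaled TPM and Psmb11 between 0.0994 and 0.224. Of the 4 pseudogene names, Psmb7-ps2 lay between 0.320 and 0.535, and the 3 others were listed at 0 in 5 of 6 libraries each. All 6 were below the mean level needed for a test, and reads shared with parent genes make the pseudogene values uncertain.

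Genes of proteasome biology without a Psm name were read as a list of 25 names, of which 22 were in the table. Of the names not matched, Shfm1 and Ecpas are other names of the listed Sem1 and AI314180, and the last is Paaf1. None passed, 2 reached an unadjusted p under 0.05 in limma (11.3% of all genes did), 13 had a difference above 0 and the median was 0.04, the same as that of the 48 tested genes to 2 decimals. Uchl5, a deubiquitylase that docks on the cap, had the lowest p. It measured 54.4, 45.4 and 46.0 scaled TPM in wild type and 40.7, 40.1 and 36.3 in knockout, without overlap (log2 difference −0.31 ± 0.09 SE, limma adjusted p = 0.359). AI314180, an older name of the proteasome adaptor Ecm29, was also below 0 without overlap (−0.24, limma adjusted p = 0.393), with 34.7, 35.9 and 36.2 in wild type and 30.5, 32.8 and 27.3 in knockout. Ube3c, a ligase that works on the proteasome, was the third of the 22 with all knockout libraries below all wild-type libraries, a pattern of 9.18% of all genes. Pomp, the maturation factor of the 20S core, measured 223, 215 and 206 in wild type and 206, 266 and 237 in knockout, and was highest in knockout replicate 2 like the 20S subunits. Nfe2l1, the transcription factor of proteasome genes, measured 152, 139.6 and 160.1 in wild type and 172, 157 and 165 in knockout, with a log2 difference of 0.13 (limma adjusted p = 0.538).

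Single transcripts of the 54 genes were compared in the same way. Of 129 tested, none passed, against 0.0451% of the 31056 transcripts tested, and 8 reached an unadjusted p under 0.05, against 10.9%. Differences were above 0 in 64 and below 0 in 65. Knockout libraries lay above all wild-type libraries for 8 (7.66% of all transcripts) and below them for 11 (10.5% of all).

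Coding and intron-retaining transcripts of the proteasome genes differed in the sign of their differences. Of 70 protein-coding transcripts 51 had a difference above 0, whereas of 42 transcripts annotated as retaining an intron 33 lay below 0, with a median of −0.25. Over all genes, 83.9% of retained-intron transcripts lay below 0, with a median of −0.37, against 78.6% of those of proteasome genes. Of coding transcripts, 45.5% lay below 0 over all genes and 27.1% among proteasome genes, with medians of 0.02 and 0.05. Retained-intron transcripts made up 7.07, 6.59 and 7.33% of the proteasome genes' TPM in wild type and 6.79, 5.16 and 6.53% in knockout (exact permutation p = 0.2). Over all genes they made up 3.91, 3.56 and 3.98% in wild type and 3.46, 2.44 and 3.31% in knockout, without overlap (exact permutation p = 0.1, the smallest that 3 against 3 allow).

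The retained-intron transcript with the lowest p was ENSMUST00000140411 of Psmd13, a cap subunit (chromosome 7, 140882429 to 140887265). It measured 3.87, 3.27 and 4.50 scaled TPM in wild type and 0, 1.23 and 0.987 in knockout, with a log2 difference of −2.0 ± 0.48 (SE; limma adjusted p = 0.354). A retained-intron transcript of Psme2, ENSMUST00000159845, measured 2.99, 5.65 and 4.98 in wild type and 2.09, 1.92 and 2.81 in knockout (limma adjusted p = 0.377). The main coding transcript of Psme2 held 84.5% of the gene and overlapped between genotypes. At 599 and 592 bases and a few TPM, both retained-intron transcripts are low and share exons with coding forms, so their levels are uncertain.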

How the data were processed

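The authors deposited 1 table of transcript abundance, a length-normalised signal in TPM, made with kallisto 0.43.1 and tested with sleuth on build mm10, per the submitters' processing notes. RNA was polyadenylated and libraries were made with the SMARTer Universal Low Input kit, per the labels. The deposited TPM carry no read depth and therefore no counting interval. Of 132639 lines, 1433 repeated a transcript with identical values, and each transcript was taken once. TPM were summed by gene name and divided by median-of-ratios factors (0.784 to 1.13), because sleuth scales this way by default. Genes and transcripts with a mean of at least 1 TPM entered a model in limma 3.58.1 under R 4.3.3 (variance trend, pseudocount 0.5), with Benjamini-Hochberg adjustment over all 14248 genes or 31056 transcripts and a threshold of 0.05. A log2 difference on this scale understates the change of low genes. P-values set the difference between genotypes against the spread between mice, 3 per group. In limma that spread is moderated by a trend over all genes or transcripts tested.

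On simulated data, 87% of genes changed by 1 on the log2 scale and 97% of those changed by 2 were recovered, with 5 of 14048 unchanged genes passing. For transcripts the shares were 31% and 81%. The simulation drew each gene independently, so it held no shift shared by the genes of a library. Changes under 1 were not simulated. The shares are over genes drawn at random and may not hold for Psmb8 and Psmb9. The residual SD of these genes lay at percentiles 94.6 and 94.7 of all genes. The genes named are, in each role, those with the lowest p, the largest difference in each direction and the highest and lowest level, besides the catalytic subunits, activators and inhibitor. Members, lists and this rule were chosen with earlier results of these data known. Start regions came from RefSeq and coordinates from GENCODE M21, which held 246 of the 249 transcripts.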

Additional observations from a re-analysis of the deposited data

How the results depend on the processing

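No proteasome gene or transcript passed the threshold under any alternative run: pseudocounts of 0.1 and 1, no filter or one at 5 TPM, TPM as deposited, quantile normalization, limma without the trend or with robust variances, transcripts of at least 0.1 TPM (genes only), the replicate block and each library left out in turn. The median difference of constitutive subunits was 0.05, with a range of −0.01 (without knockout replicate 2) to 0.10 when single libraries were left out, 0.08 with TPM as deposited and −0.03 after quantile normalization. The median of the 5 immune members was 0.02, from −0.10 (without wild-type replicate 1) to 0.23 (without wild-type replicate 2), and −0.04 after quantile normalization. The ratio of Psmb8 to Psmb5 ranged from −0.46 to 0.10 over the left-out libraries, that of Psmb9 to Psmb6 from −0.43 to 0.13 and that of Psmb10 to Psmb7 from −0.15 to 0.18. Among 494 alternative values of the 31 named genes, 46 had the other sign, in 18 genes, and 0 passed. Among all genes, 6 passed in the reported fit, 38 with TPM as deposited, 22 without a filter, 26 with the replicate block and 2 (without knockout replicate 1) to 21 (without wild-type replicate 2) with libraries left out. At an unadjusted p under 0.05 in limma, 0 to 3 proteasome genes were found over these alternatives, 0 of them with TPM as deposited or without wild-type replicate 2, and the lowest adjusted p of a proteasome gene over these alternatives was 0.321. Scaling moved the median of all genes from 0.02 as deposited to −0.003. With the replicate number as a block, 0 proteasome genes and 0 transcripts passed and the ratios were unchanged (−0.22, −0.17 and 0.004). Deviations of same-numbered libraries correlated at 0.057, 0.145 and 0.189. Each wild-type library correlated most with the knockout library of its own number. Knockout replicate 1, however, correlated more with wild-type replicate 3 (0.107) than with wild-type replicate 1. These values do not settle whether the numbers pair mice, and the reported fit does not pair them.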
